A study of Mus musculus with 12 samples.

Results

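Matricellular glycoproteins are secreted proteins that sit in the extracellular matrix and act on cells and on the assembly of fibers more than they bear load themselves. Here 10 such genes were followed, *Fn1*, *Sparc*, *Thbs1*, *Thbs2*, *Tnc*, *Tnxb*, *Tnn*, *Postn*, *Cthrc1* and *Spp1*, which were taken by name from the 54352 gene symbols of the deposited count table. All 10 were found there. The RNA came from primary fibroblasts of the aortic adventitia, the outer layer of the vessel wall, of WT C57Bl/6 mice with a labelled age of 14 weeks. Cells that grew out of pieces of adventitia were passaged in DMEM with 5% FBS and given either solute control or mouse TGFβ, the main profibrotic growth factor, at 10 ng/mL for 48 h. The 12 libraries formed 4 groups of 3, which were ascending control, ascending TGFβ, descending control and descending TGFβ, all labelled as one batch, and the comparisons ask how the site and the treatment each set the RNA level of these genes. Whether the replicates came from separate animals is not given in the sources used here, so p-values measure only the spread between these cultures, which may be technical. In such bulk cultures, fewer cells of a type and less RNA per cell cannot be told apart.

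Fibronectin, encoded by *Fn1*, is laid down early and serves as a scaffold for collagen and for growth factor complexes. Thrombospondins and SPARC regulate how cells adhere and how collagen is handled, tenascin-C and periostin are made in large amounts during development and repair, and tenascin-X is a constituent of resting connective tissue. Most of these proteins are read by integrins and by a few other cell surface receptors, and several are known targets of TGFβ in fibroblasts.

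The libraries held 16250126 to 23892943 reads assigned to genes, and levels are given as normalized CPM, a count relative to its library's total after edgeR's TMM scaling. The floor of 3 counts lay at 0.117 to 0.207 normalized CPM, which covers counting error only, because amplified reads with no molecular identifier can be copies of one molecule. Of the 10 genes, 9 passed the filter on low counts in all 5 fits, and the lowest of their counts in any library was 85, for *Cthrc1*. Descending control replicate 3 stood apart from the other libraries. Counts were present on 13031 genes there and on 19337 to 20931 elsewhere, and mitochondrial genes took 11.02% of its counts, compared with 0.703 to 1.03%. The library stayed in the fits, and values without it are given for the main changes it bears on. All 8 fibroblast markers, among them *Pdgfra*, *Col1a1* and *Dcn*, were above the floor in every library. The 7 smooth muscle markers, which include the myofibroblast gene *Acta2*, summed to 2430 to 2479 normalized CPM in descending and 1516 to 1631 in ascending control, and to 7871 to 8301 and 5034 to 5123 with TGFβ, so that the sums separated both the sites and the treatments. Most of each sum was *Acta2*, whose log2 fold change between the sites, ascending minus descending, was -0.63 in control (adjusted p = 0.0268) and -0.67 with TGFβ (adjusted p = 3.72e-16). With TGFβ in ascending fibroblasts, *Cnn1* (1.94), *Acta2* (1.72), *Tagln* and *Lmod1* (0.25) rose, in this order of size, and *Myh11* (-0.63) and *Des* (-1.35) fell, with adjusted p-values of at most 0.00184. In descending fibroblasts *Acta2* (1.76, adjusted p = 9.05e-04) and *Cnn1* (1.93, adjusted p = 0.0479) rose, and *Myh11* was at 0.38 (adjusted p = 0.486), or 0.77 without control replicate 3 (adjusted p = 1.40e-10). There *Tagln* (1.34, adjusted p = 0.0921), *Lmod1* (0.13, adjusted p = 0.873) and *Des* (-1.41, adjusted p = 0.115) did not pass edgeR's quasi-likelihood test. Without control replicate 3 they passed, *Tagln* at 1.03 (adjusted p = 4.82e-09), *Lmod1* at 0.73 (adjusted p = 2.04e-09) and *Des* at -1.37 (adjusted p = 0.00184). The part of these genes in the site and TGFβ comparisons below was not tested. Endothelial, mesothelial, Schwann cell and adipocyte markers each summed to at most 44.2 normalized CPM in any library, but the means of single markers were unequal between groups. *Adipoq* and *Plin1* of adipocytes had means of 11.8 and 11.1 in descending control and 0.914 and 0.738 in ascending control. Without ascending control replicate 2, the highest of its group for both, the ascending means were 0.371 and 0.407. Of the mesothelial markers, *Upk3b* was higher in ascending control (33.7 compared with 0.860) and *Krt19* lower (3.71 compared with 10.0), and *Wt1* was at 0 in all control libraries. The endothelial sum was mostly *Tek*, with means of 24.2 and 24.3 in the control groups and 8.56 and 4.13 in descending and ascending TGFβ, while *Pecam1* and *Cdh5* had means of at most 0.208 and *Kdr* was at 0.487 in descending control and 1.47 in descending TGFβ. Of the Schwann cell markers, *S100b*, which made up most of the sum, had means of 18.3 in descending and 15.9 in ascending control and of 10.8 and 9.47 with TGFβ, while *Sox10* was at 0 in every descending library and at means of 2.23 and 2.17 in ascending control and TGFβ. The part of these markers in the site and TGFβ comparisons was not tested.

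The sequences just before the start of 4 of these genes are shown, chosen among those with an entry in the promoter table, as examples of the patterns described below. *Postn* changed with TGFβ differently at the 2 sites, *Thbs2* had close fold changes at both sites and a site difference in either condition, and *Tnc* and *Tnxb* fell with TGFβ in ascending fibroblasts. Each run holds the 250 bases before a start site in RefSeq on GRCm38.p6, read 5′ to 3′ on the strand of the gene, and covers chr3:54360857-54361106 (+) for *Postn*, chr17:14694263-14694512 (-) for *Thbs2*, chr4:64047016-64047265 (-) for *Tnc* and chr17:34670285-34670534 (+) for *Tnxb*. Capitals mark matches on either strand to the SMAD box CAGAC, which reads GTCTG from the other strand and is an element that activated SMADs can bind, to the AP-1 site TGANTCA and to the TATA box TATAAA, and no matches overlap in these 4 runs.
Postn: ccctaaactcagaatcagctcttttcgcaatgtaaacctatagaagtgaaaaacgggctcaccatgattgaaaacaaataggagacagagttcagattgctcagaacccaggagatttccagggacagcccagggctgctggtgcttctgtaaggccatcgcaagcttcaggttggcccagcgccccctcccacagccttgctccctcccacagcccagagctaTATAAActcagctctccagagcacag
Thbs2: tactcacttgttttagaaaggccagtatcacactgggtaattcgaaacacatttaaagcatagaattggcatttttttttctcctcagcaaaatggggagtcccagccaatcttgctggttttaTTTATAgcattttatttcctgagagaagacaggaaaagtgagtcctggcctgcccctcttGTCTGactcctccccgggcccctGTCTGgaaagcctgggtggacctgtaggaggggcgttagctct
Tnc: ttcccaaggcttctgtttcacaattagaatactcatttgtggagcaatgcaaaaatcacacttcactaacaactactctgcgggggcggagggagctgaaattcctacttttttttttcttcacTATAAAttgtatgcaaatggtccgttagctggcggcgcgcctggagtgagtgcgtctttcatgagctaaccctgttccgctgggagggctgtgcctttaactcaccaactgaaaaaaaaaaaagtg
Tnxb: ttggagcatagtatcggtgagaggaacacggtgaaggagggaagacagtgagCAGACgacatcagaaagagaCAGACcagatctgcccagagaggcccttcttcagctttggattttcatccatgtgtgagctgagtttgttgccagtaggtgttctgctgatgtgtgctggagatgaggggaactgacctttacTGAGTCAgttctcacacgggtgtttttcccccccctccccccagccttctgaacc

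Counted back from -1 at the last base before the start, *Postn* had a TATA box at -26 and no SMAD box. *Thbs2* had SMAD boxes at -66 and -43 and a TATA box at -126. *Tnc* had a TATA box at -126, and *Tnxb* had SMAD boxes at -198 and -178 and an AP-1 site at -55. Of the 7 genes of the list with an entry in the promoter table, 4 held a SMAD box (*Tnxb*, *Sparc*, *Thbs2* and *Spp1*), 4 a TATA box (*Tnc*, *Postn*, *Thbs2* and *Spp1*) and 1 an AP-1 site (*Tnxb*). Over all 32851 promoters of the table, windows of the same length held a SMAD box in 42.2%, a TATA box in 12.4% and an AP-1 site in 6.75%. Such a match is a run of letters, not a shown binding site. *Fn1*, *Thbs1* and *Cthrc1* were the others.

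In ascending fibroblasts, TGFβ changed 8 of the 9 tested genes. *Cthrc1*, *Postn*, *Thbs1*, *Thbs2*, *Sparc* and *Fn1* rose, *Tnxb* and *Tnc* fell, and *Spp1* did not pass the test. The background was high, as 55.8% of the 13917 genes tested were called in this comparison, 28.2% higher and 27.6% lower, at a Benjamini-Hochberg adjusted p under 0.05 from edgeR's quasi-likelihood test. The 9 genes had a median log2 fold change of 0.36, compared with -0.00 over all genes.

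In descending fibroblasts, 5 of the 9 were called, *Cthrc1*, *Thbs1*, *Thbs2* and *Sparc* as higher and *Spp1* as lower with TGFβ. Over all genes 8.07% were called, 3.59% higher and 4.48% lower. The list was chosen with earlier results of these data known and holds abundant genes, so its larger share is a description, not a test. Without descending control replicate 3 all 9 were called, 6 higher and 3 lower, where 52.9% of all genes were called. Leaving out a descending TGFβ replicate instead left 1 call, *Cthrc1*, and leaving out one of the other descending controls left 2, *Cthrc1* and *Thbs1*, and with no filter on low counts 2 remained, *Cthrc1* and *Thbs2*. The calls over all genes fell in the same fits, from 1115 to between 213 and 218 without a TGFβ replicate, to 474 and 371 without control replicate 1 or 2, and to 862 with no filter. The median log2 fold change of the 9 was 0.34, with 0.02 over all genes.

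**Figure D1:**
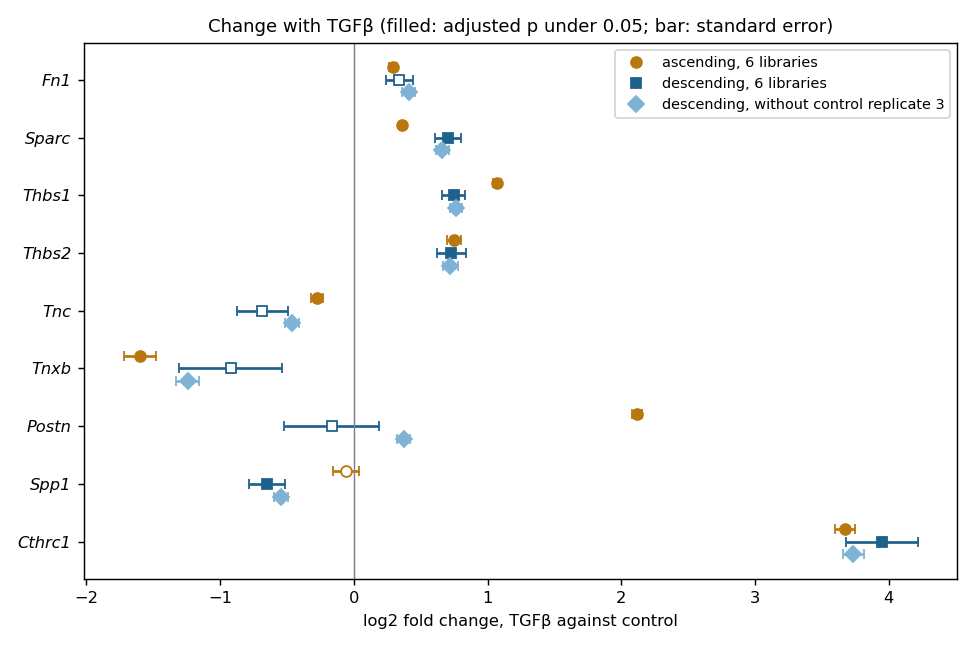
Log2 fold change with TGFβ against control for each of the 9 tested genes, in ascending fibroblasts, in descending fibroblasts, and in descending fibroblasts without control replicate 3; filled symbols passed an adjusted p under 0.05 and bars are standard errors. *Cthrc1* lies farthest to the right at both sites (3.68 and 3.95), and *Postn* is at 2.12 in ascending and -0.17 in descending fibroblasts.

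*Cthrc1*, which encodes a secreted protein of injured arteries and activated fibroblasts, had the largest rise of the list at both sites. In ascending control it was at 8.26, 9.20 and 7.02 normalized CPM, and with TGFβ at 105, 98.9 and 110.1. In descending control it was at 11.1, 9.68 and 5.86, and with TGFβ at 138, 147 and 131. Treated and control libraries were thus far apart at either site, while the 2 control groups overlapped. *Cthrc1* rose 12.8-fold in ascending fibroblasts (log2 fold change 3.68, standard error 0.08, adjusted p = 3.38e-16 by edgeR's quasi-likelihood test) and 15.5-fold in descending fibroblasts (3.95, standard error 0.27, adjusted p = 0.00156). Without descending control replicate 3, its lowest library, the descending change was 13.3-fold. A difference in response between the sites was not detected, as the interaction was -0.27 on the log2 scale (its standard error was 0.27 and its adjusted p 0.693). Without descending control replicate 3 the interaction was -0.05 (standard error 0.12, adjusted p = 0.850). The gene lies at chr15:39076932-39087121 (+) and shares none of its 50-base exonic sequences with another gene.

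*Postn*, at chr3:54361109-54391037 (+), encodes periostin, an integrin ligand that promotes collagen cross-linking. Ascending control libraries held 150.1, 162 and 149 normalized CPM, and ascending TGFβ libraries 665, 668 and 673. Descending control libraries held 420.4, 437 and 993, and descending TGFβ libraries 560.1, 568 and 533. The ascending controls were thus the low group, and the widest spread lay in the descending controls, where replicate 3 was above every other library. In ascending fibroblasts *Postn* rose 4.33-fold (log2 fold change 2.12, standard error 0.04, adjusted p = 3.05e-17 by edgeR's quasi-likelihood test). In descending fibroblasts the log2 fold change was -0.17 (standard error 0.36, adjusted p = 0.817), and without control replicate 3 it was 0.37 (standard error 0.05, adjusted p = 1.66e-07), so that this library turned the sign.

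*Postn* was the only one of the 9 whose response to TGFβ was called as different between the sites. The interaction was 2.28 on the log2 scale (standard error 0.38, adjusted p = 0.0228 by edgeR's quasi-likelihood test), where 0.806% of 14637 genes were called, 0.321% higher and 0.485% lower. Without descending control replicate 3 it was 1.75 (standard error 0.06, adjusted p = 1.34e-16). That fit also called *Spp1* (0.49, adjusted p = 0.00766), *Thbs1* (0.31, adjusted p = 7.74e-05) and *Sparc* (-0.30, adjusted p = 3.07e-05), for 4 of the 9 and 13.5% of all genes. Leaving out any one of the ascending libraries or of the descending TGFβ libraries gave a *Postn* interaction of 2.24 to 2.31 and adjusted p-values of 0.0680 to 0.0879, above the threshold of 0.05. Over the 9 genes the median interaction was 0.02, and over all genes it was -0.06.

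**Figure D2:**
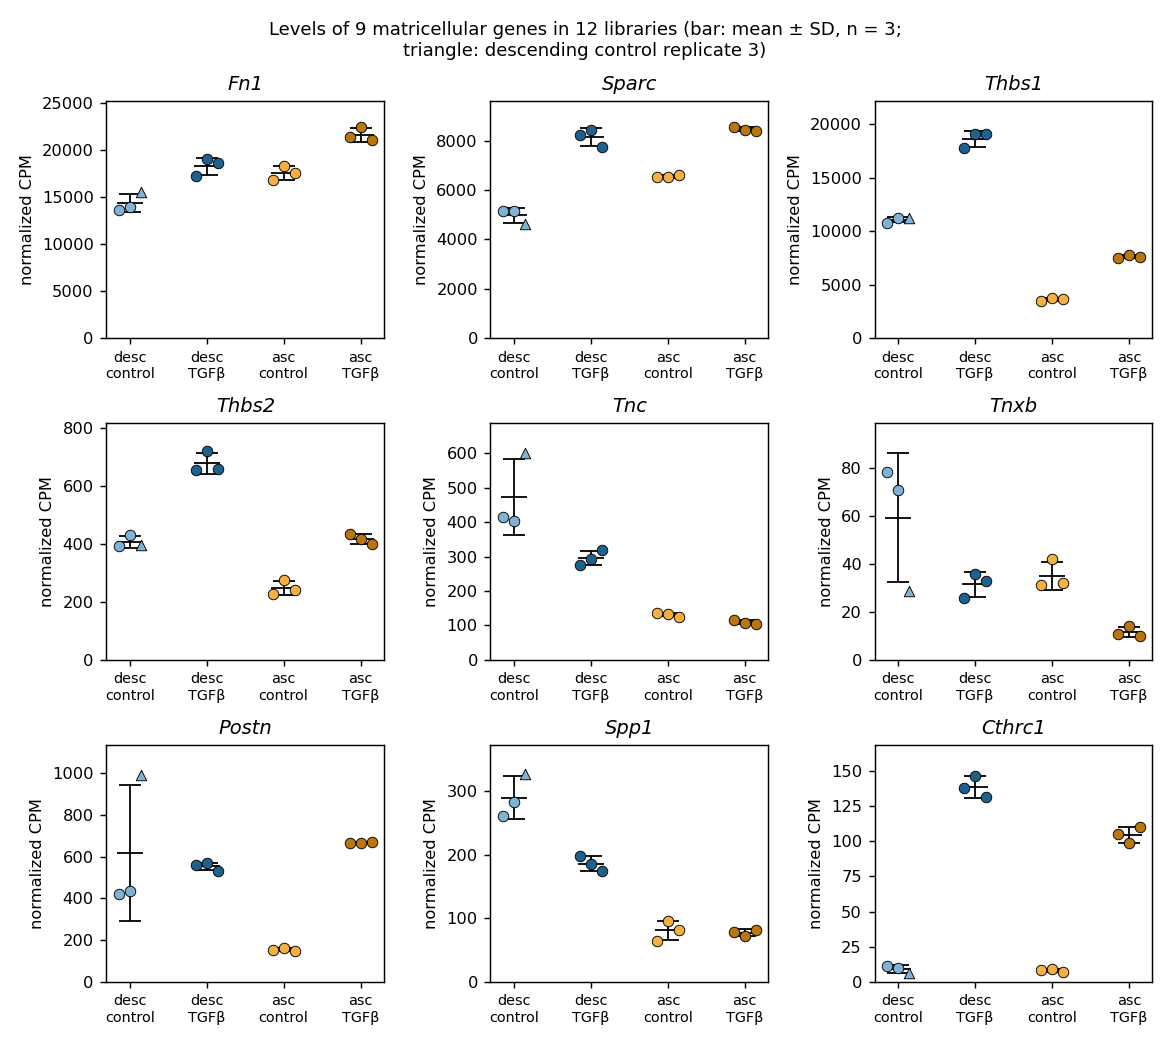
Normalized CPM of the 9 tested genes in every library, with 1 panel per gene and 1 point per culture for the 4 groups of site and treatment; bars show the mean ± SD of 3 libraries, and the triangle is descending control replicate 3. *Postn* has its lowest group in ascending control (149 to 162) and its highest point in descending control replicate 3 (993), and in *Thbs1* the 4 groups occupy separate ranges.

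*Thbs1*, at chr2:118111876-118127133 (+), encodes thrombospondin-1, which restrains vessel growth and can free TGFβ from its latent complex. Descending control libraries had 10784, 11213 and 11209 normalized CPM and descending TGFβ libraries 17804, 19076 and 19083. Ascending libraries had 3454, 3763 and 3633 in control and 7500.2, 7769 and 7575 with TGFβ. No group overlapped another, and even treated ascending cultures were below untreated descending ones. TGFβ raised *Thbs1* 2.10-fold in ascending (log2 fold change 1.07, standard error 0.03, adjusted p = 9.26e-15 by edgeR's quasi-likelihood test) and 1.68-fold in descending fibroblasts (0.75, standard error 0.09, adjusted p = 0.00678). Without descending control replicate 3 the descending change was 0.77 (adjusted p = 1.09e-14), and leaving out a descending TGFβ library moved its p to between 0.0551 and 0.0703.

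*Thbs2*, at chr17:14665500-14694235 (-), encodes thrombospondin-2, whose loss in mice is known to disturb collagen fibril shape. Its levels in descending fibroblasts were 393, 432 and 397 normalized CPM in control and 658, 720.4 and 659 with TGFβ. In ascending fibroblasts they were 226, 275 and 241 in control and 435, 418 and 399.5 with TGFβ. Ascending TGFβ and descending control libraries overlapped, with ascending controls below them and descending TGFβ above. The rise was 1.68-fold in ascending (log2 fold change 0.75, standard error 0.05, adjusted p = 3.17e-09 by edgeR's quasi-likelihood test) and 1.66-fold in descending fibroblasts (0.73, standard error 0.11, adjusted p = 0.0138, and 0.0606 to 0.110 when a descending library other than control replicate 3 was left out). Without control replicate 3 the descending value was 0.72 (adjusted p = 1.19e-12). The interaction was 0.02 with a standard error of 0.12 and an adjusted p of 0.946, so a difference smaller than its error was not detectable here.

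*Sparc* and *Fn1* were the most evenly expressed of the list, with group means that differed at most 1.70-fold and 1.51-fold. *Sparc*, at chr11:55394500-55423183 (-), encodes a collagen-binding protein also called osteonectin. It was at 5168, 5151 and 4629.9 normalized CPM in descending control, at 8246, 8448 and 7754 in descending TGFβ, at 6538, 6526 and 6624 in ascending control and at 8555, 8459 and 8389 in ascending TGFβ. The treated groups overlapped each other, and both were above both control groups. *Sparc* rose 1.29-fold in ascending (log2 fold change 0.36, standard error 0.02, adjusted p = 1.24e-10 by edgeR's quasi-likelihood test) and 1.63-fold in descending fibroblasts (0.70, standard error 0.10, adjusted p = 0.0119, and 0.0514 to 0.0988 when a descending library other than control replicate 3 was left out). Without control replicate 3 it was 0.66 in descending fibroblasts (adjusted p = 4.21e-13).

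*Fn1*, at chr1:71585520-71653200 (-), was at 13647, 13968 and 15500.0 normalized CPM in descending control and 17279.7, 19041 and 18576 in descending TGFβ. It was at 16812, 18352 and 17593 in ascending control and 21388, 22499 and 21089.6 in ascending TGFβ. Descending TGFβ and ascending control overlapped, and the other neighbors in the order were apart. *Fn1* rose 1.23-fold in ascending fibroblasts (log2 fold change 0.30, standard error 0.03, adjusted p = 2.10e-07 by edgeR's quasi-likelihood test). In descending fibroblasts the change was 1.27-fold (0.34, standard error 0.10) and did not pass, with an adjusted p of 0.102, while without control replicate 3 it was 0.41 with an adjusted p of 1.08e-08.

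Both tested tenascins, large proteins that modulate adhesion, fell with TGFβ in ascending fibroblasts. *Tnc*, at chr4:63959785-64047015 (-), encodes tenascin-C, and was at 414, 403 and 601 normalized CPM in descending control, 277, 292 and 319 in descending TGFβ, 136, 133 and 125 in ascending control and 115, 108 and 104 in ascending TGFβ. The 4 groups occupied separate ranges, and the highest library was descending control replicate 3. With TGFβ, *Tnc* fell 1.21-fold in ascending fibroblasts (log2 fold change -0.28, standard error 0.04, adjusted p = 5.52e-05 by edgeR's quasi-likelihood test). When the 12 libraries, descending control replicate 3 among them, shared one estimate of the spread, calls over all genes fell from 7767 to 2338. The *Tnc* call was lost there, with an adjusted p of 0.264. In descending fibroblasts the log2 fold change was -0.68 (standard error 0.19, adjusted p = 0.0929), and without control replicate 3 it was -0.46 (adjusted p = 1.55e-08).

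*Tnxb*, at chr17:34670535-34719815 (+), encodes tenascin-X, whose deficiency causes lax connective tissue. Its levels were 78.3, 70.6 and 28.7 normalized CPM in descending control, 25.6, 35.7 and 32.9 in descending TGFβ, 31.3, 41.8 and 32.2 in ascending control and 10.7, 14.1 and 9.94 in ascending TGFβ. Descending control replicate 3 was far below its group, and the ascending TGFβ cultures formed the low group. *Tnxb* fell 3.03-fold in ascending fibroblasts (log2 fold change -1.60, standard error 0.12, adjusted p = 7.16e-09 by edgeR's quasi-likelihood test). In descending fibroblasts the value was -0.92 (standard error 0.38, adjusted p = 0.22), and -1.24 without control replicate 3 (adjusted p = 2.31e-13). Of its 50-base exonic sequences, 6.41% occur in another gene, mostly the pseudogene *Tnxa*. *Tnn*, at chr1:160085029-160153580 (-), encodes tenascin-N (tenascin-W), which is known from bone and tumor stroma, and had 0 to 4 counts in any library. It was not tested, and with 0 counts in all 3 ascending controls the floor allowed up to 0.130 to 0.150 normalized CPM there.

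*Spp1*, at chr5:104435118-104441050 (+), encodes osteopontin, a phosphoprotein ligand of integrins and CD44 that macrophages also make in quantity. Descending control libraries had 260.3, 283 and 326 normalized CPM, and descending TGFβ libraries 198, 186 and 174. Ascending libraries had 64.7, 95.9 and 81.4 in control and 78.0, 72.2 and 82.1 with TGFβ. The ascending groups overlapped, and both were below either descending group. *Spp1* fell 1.57-fold in descending fibroblasts (log2 fold change -0.65, standard error 0.13, adjusted p = 0.0399 by edgeR's quasi-likelihood test, and 0.077 to 0.233 when a descending library other than control replicate 3 was left out). Without control replicate 3 this change was -0.55 (adjusted p = 9.99e-10). In ascending fibroblasts its log2 fold change was -0.06 (standard error 0.10, adjusted p = 0.616), and it was 0.08 without control replicate 2 (adjusted p = 0.318) and -0.20 without control replicate 1 (adjusted p = 0.0161).

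Ascending control replicate 2, the library with the most *Spp1* in its group, also stood apart in macrophage RNA. The 8 macrophage markers summed to 355 normalized CPM there and to 54.8 and 60.3 in the other ascending controls, with all 8 above the floor. The sums were 30.1 to 42.2 in ascending TGFβ, 27.5 to 51.0 in descending control and 15.5 to 27.9 in descending TGFβ, and *Fcgr1* was at 0 in 8 of the 12 libraries, *Ptprc*, *Adgre1* and *Mrc1* in descending control replicate 3 alone. *Lyz2* made up 292 normalized CPM of the highest sum. The part of this RNA in the *Spp1* values was not tested. Of the exonic bases of *Spp1*, 18.8% overlap *Gm42793*, a transcript model on the same strand with at most 2 counts in any library.

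Comparing the sites in control cultures, 4 of the 9 tested genes were called, and all 4 were lower in ascending fibroblasts, *Tnc*, *Spp1*, *Thbs1* and *Thbs2*. Over all 14090 genes 2.65% were called, 1.19% higher and 1.47% lower in ascending. *Tnc* was 3.59-fold lower (log2 fold change -1.85, standard error 0.19, adjusted p = 0.00959 by edgeR's quasi-likelihood test), and *Spp1* was 3.58-fold lower (-1.84, standard error 0.19, adjusted p = 0.00946). *Thbs1* was 3.05-fold lower (-1.61, standard error 0.09, adjusted p = 0.00192), and *Thbs2* 1.64-fold lower (-0.71, standard error 0.12, adjusted p = 0.0424). *Postn* was 4.01-fold lower but missed the threshold (-2.00, standard error 0.37, adjusted p = 0.0597). This comparison and that of TGFβ in descending fibroblasts share the descending controls.

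Without descending control replicate 3, 8 of the 9 were called, 2 higher and 6 lower in ascending control, beside 31.6% of all genes. *Sparc* (0.36, adjusted p = 2.37e-08) and *Fn1* (0.36, adjusted p = 5.17e-07) were the 2 higher ones, and *Postn* (-1.47, adjusted p = 1.99e-11) and *Tnxb* (-1.08, adjusted p = 1.31e-06) joined those that were lower. *Spp1* was at -1.74, *Tnc* at -1.63, *Thbs1* at -1.59 and *Thbs2* at -0.72 in that fit. *Cthrc1*, at -0.34, was the one that did not pass (adjusted p = 0.0867). With all other libraries kept, leaving out an ascending control left the call of *Thbs1* alone, and leaving out descending control replicate 1 or 2 left 3 or 2 calls. Over all genes the 374 calls became 33, 43 and 33 without ascending control replicate 1, 2 or 3, and 108 and 77 without descending control replicate 1 or 2.

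With TGFβ at both sites, 8 of the 9 tested genes differed, 2 higher and 6 lower in ascending fibroblasts, in a fit where 36.3% of 13678 genes were called, 18.1% higher and 18.2% lower. *Tnc* was 2.71-fold lower (log2 fold change -1.44, standard error 0.05, adjusted p = 5.12e-20 by edgeR's quasi-likelihood test), *Tnxb* 2.70-fold lower (-1.43, standard error 0.11), *Thbs1* 2.45-fold lower (-1.29, standard error 0.03) and *Spp1* 2.40-fold lower (-1.26, standard error 0.05). *Thbs2* was 1.62-fold and *Cthrc1* 1.32-fold lower in ascending TGFβ. *Postn* was 1.21-fold higher in ascending fibroblasts (0.28, standard error 0.04, adjusted p = 3.08e-07), which is the opposite side to its control value, and *Fn1* was 1.19-fold higher (0.25, standard error 0.04, adjusted p = 1.75e-06). *Sparc* was at 0.06 with a standard error of 0.03 (adjusted p = 0.199). Leaving out a descending TGFβ library moved it to between 0.02 and 0.08, with adjusted p-values of 0.0444 to 0.713. When the 12 libraries shared one estimate of the spread, calls over all genes in this comparison fell from 4963 to 1106. *Fn1*, *Postn* and *Cthrc1* no longer passed there, with adjusted p-values of 0.100, 0.869 and 0.310. The median log2 difference of the 9 genes was -0.75 in control and -0.70 with TGFβ, where all genes had medians of 0.04 and 0.00.

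**Figure D3:**
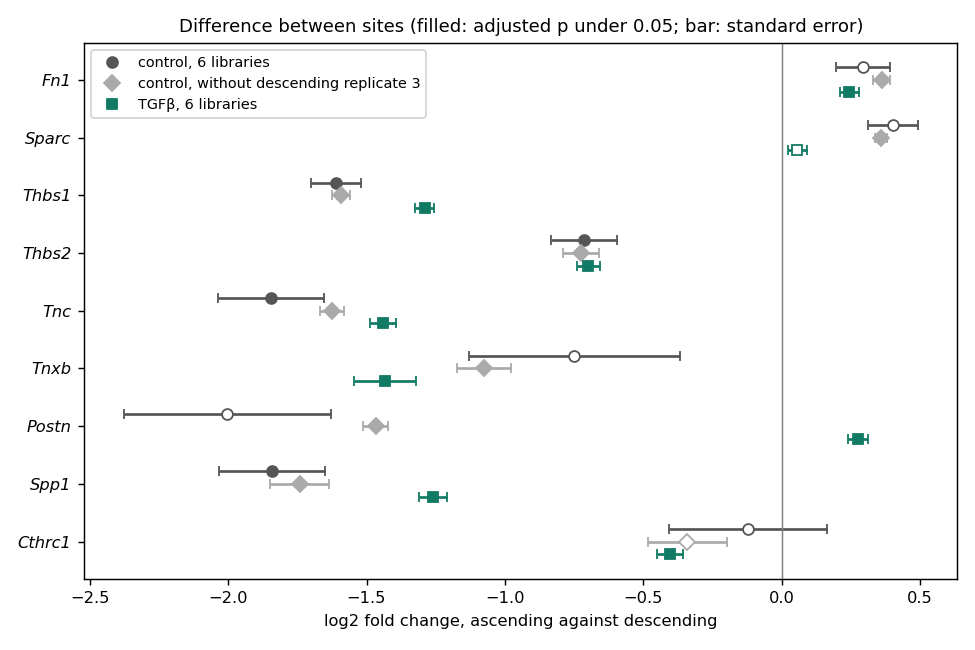
Log2 fold change of ascending against descending fibroblasts for the 9 tested genes, in control, in control without descending replicate 3, and with TGFβ; filled symbols passed an adjusted p under 0.05 and bars are standard errors. *Thbs1*, *Tnc* and *Spp1* lie between -1.85 and -1.26 in both conditions, while *Postn* lies at -2.00 in control and at 0.28 with TGFβ.

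Levels of different genes were compared as TPM, counts scaled by the length of all exons of a gene. *Sparc*, *Thbs1* and *Fn1* made up most of the RNA of the 10 genes in every group. In ascending fibroblasts the order was *Sparc*, *Fn1* and *Thbs1*, which held 43.8%, 38.0% and 15.0% of the summed TPM of the list in control and 39.9%, 33.1% and 22.4% with TGFβ (means of 3 libraries). In descending fibroblasts *Thbs1* held the largest share, with 38.4% in control and 42.7% with TGFβ. When the longest transcript was used as the length, *Sparc* was first in descending fibroblasts too, so that the order of these 2 rests on the transcript model. The summed TPM of the 10 genes was 18223 and 18700.2 in descending control replicates other than 3, 13678 in replicate 3 and 24427 to 26200.2 in descending TGFβ, and 14912.5 to 16002 in ascending control and 20334.5 to 21048 in ascending TGFβ.

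Below these 3, the make-up of the list shifted with treatment. In ascending control *Spp1*, at 192 ± 38.8 TPM (SD, n = 3), was the fourth, ahead of *Thbs2* at 138 ± 15.0. With TGFβ *Postn*, at 283 ± 1.73, *Cthrc1*, at 242 ± 12.3, and *Thbs2*, at 219.7 ± 9.56, were all ahead of *Spp1*, at 173 ± 10.6. In descending fibroblasts *Spp1* was the fourth in control (619 ± 59.0) and with TGFβ (398 ± 21.1). *Tnxb* was the lowest of the 9 in every group, at 3.49 ± 0.672 TPM in ascending TGFβ and 18.2 ± 10.1 in descending control. The 2 thrombospondins differed in their balance by site, as *Thbs1* exceeded *Thbs2* 29.9 to 33.4 times per length in descending libraries of either treatment, 15.8 to 17.6 times in ascending control and 19.9 to 21.9 times in ascending TGFβ. The site ranges of this ratio did not overlap.

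**Figure D4:**
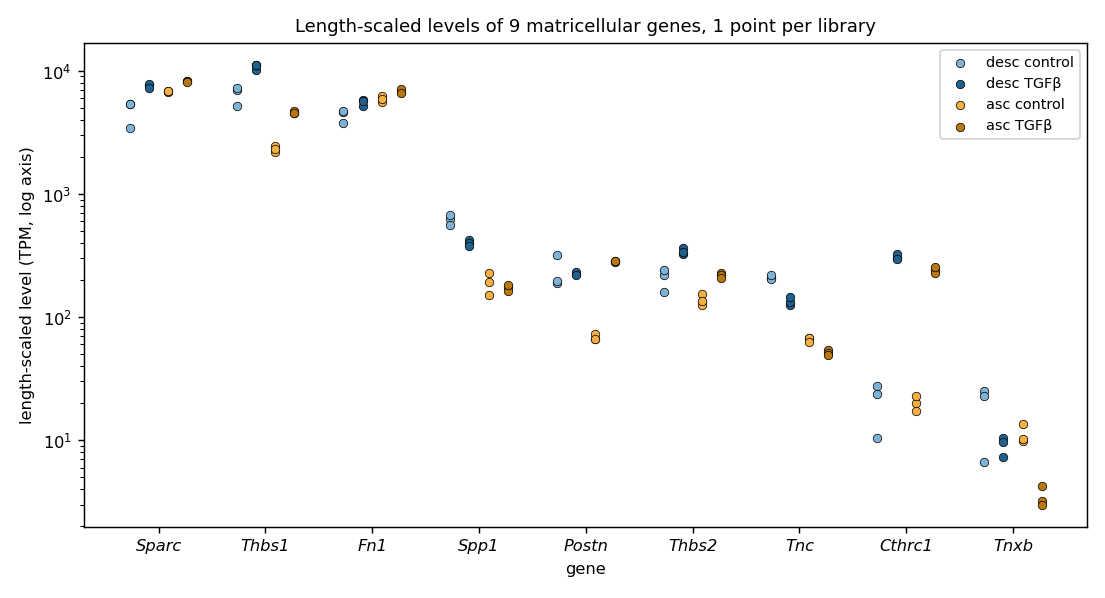
Length-scaled level (TPM, log axis) of the 9 tested genes in each of the 12 libraries, colored by group, with 1 point per library. *Sparc*, *Thbs1* and *Fn1* lie above the other genes in every library, and *Cthrc1* moves from about the level of *Tnxb* in descending control (20.6 and 18.2 on average) to above *Tnc* with TGFβ.

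A list of 17 relatives of these proteins was set beside them, and 8 passed the filter on low counts. With TGFβ, *Tgfbi*, a periostin relative, had log2 fold changes of -1.62 in ascending (adjusted p = 3.92e-07 by edgeR's quasi-likelihood test) and -2.56 in descending fibroblasts (adjusted p = 0.00209). *Smoc1*, a SPARC relative, was lower as well, at -1.32 and -1.66 (adjusted p = 7.35e-11 and 0.00213). Without descending control replicate 3 the descending values were -2.70 for *Tgfbi* and -1.66 for *Smoc1*. In all, 5 of the 8 relatives were called in ascending fibroblasts, 1 higher and 4 lower, and 3 in descending, all lower, which became 6 without control replicate 3. The shares over all genes were 55.8% in ascending and 8.07% in descending fibroblasts, the latter 52.9% without that library. Between the sites, *Comp*, the cartilage thrombospondin, was at 165, 175 and 109 normalized CPM in descending control and at 12.9, 13.8 and 12.6 in ascending control. The log2 fold change of *Comp* was -3.51 in control (standard error 0.22, adjusted p = 0.00243) and -2.99 with TGFβ (standard error 0.09, adjusted p = 2.54e-21). *Sparcl1* (-2.95) and *Thbs3* (-1.56) were the others called in control. These 3 calls, beside 2.65% of all genes, became 6 of 8 without descending control replicate 3, 1 higher and 5 lower, beside 31.6%, and with TGFβ 6 of the 8 were called, 1 higher and 5 lower, beside 36.3%. *Sparcl1* was at -2.77 and *Thbs3* at -1.51 between the sites with TGFβ (adjusted p = 1.25e-10 and 6.40e-11). With TGFβ, *Sparcl1* had log2 fold changes of -1.32 in ascending (adjusted p = 9.73e-04) and -1.51 in descending fibroblasts (adjusted p = 0.0569). *Comp* was at -0.81 in ascending (adjusted p = 6.32e-06) and -1.33 in descending fibroblasts (adjusted p = 0.0179). Without descending control replicate 3 the descending values were -1.08 for *Sparcl1* (adjusted p = 2.95e-07) and -1.51 for *Comp*. In the fit without the descending control replicate 3, *Comp* was at -3.68, *Sparcl1* at -2.53 and *Thbs3* at -1.73 in control.

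All 13 receptors on a list of those known to bind such proteins passed the filter. In ascending fibroblasts TGFβ changed 13 of 13, 8 up and 5 down, and in descending fibroblasts 5 of 13, 4 up and 1 down, which became 12 without control replicate 3. Beside these, 55.8%, 8.07% and 52.9% of all genes were called. The fibronectin receptor subunit *Itga5* rose by 1.56 in ascending and 1.67 in descending fibroblasts on the log2 scale (adjusted p = 1.77e-15 and 0.0124 by edgeR's quasi-likelihood test). *Itga4*, whose product binds fibronectin and osteopontin, rose by 1.82 and 2.26, and *Itgb5*, a partner of the αv chain, by 1.22 and 1.82. With descending control replicate 3 left out, the descending values were 1.46 for *Itga5*, 2.72 for *Itga4* and 1.55 for *Itgb5*. *Cd47*, the thrombospondin-1 receptor, had log2 fold changes of -0.83 and -1.02 (adjusted p = 1.51e-09 and 0.00664). *Cd44*, an osteopontin receptor, was the 1 receptor called between the sites in control (-1.14, adjusted p = 0.0429, and -0.91 without descending control replicate 3). Without that library 10 of 13 were called in control, 4 higher and 6 lower in ascending, beside 31.6% of all genes. With TGFβ 10 of 13 were called, 3 higher and 7 lower in ascending, beside 36.3%. The largest of these were *Cd36* (-3.10), *Itga8* (-2.37, an osteopontin-binding chain), *Itga4* (1.43) and *Itgb3* (-1.05), with adjusted p-values of 1.26e-10, 1.45e-20, 1.29e-17 and 2.08e-10. *Cd36*, a thrombospondin receptor, had a log2 fold change of -3.85 with TGFβ in ascending fibroblasts (adjusted p = 0.00204), but it was at 39.9 normalized CPM in ascending control replicate 2, the library high in macrophage markers, and at 2.35 and 2.34 in the other 2 controls.

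**Figure D5:**
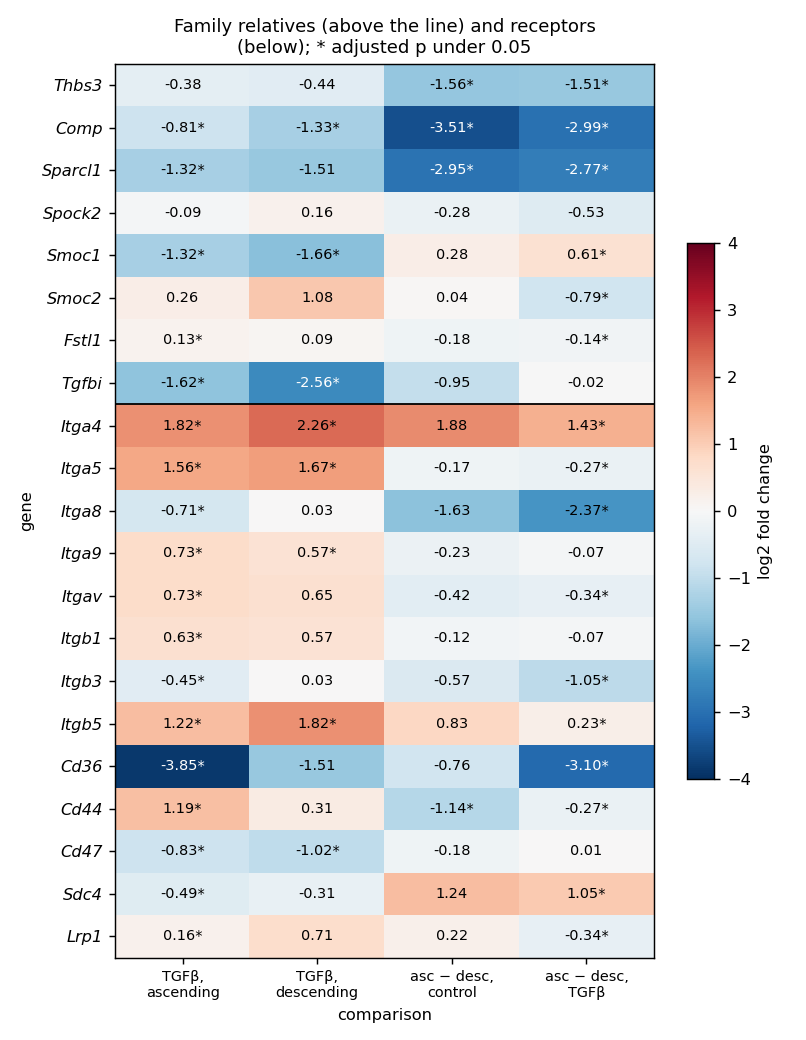
Heat map of the log2 fold change of the tested relatives (above the line) and receptors (below it) in 4 comparisons, TGFβ against control in ascending and in descending fibroblasts and ascending against descending in control and with TGFβ; red is higher, blue is lower, and a star marks an adjusted p under 0.05. *Tgfbi* (-1.62 and -2.56) and *Smoc1* are blue and *Itga4* (1.82 and 2.26) and *Itga5* red in both TGFβ columns, and *Comp* is deep blue in both site columns (-3.51 and -2.99).

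Across the 12 libraries, each of the 9 genes was set against the 14636 other genes tested by Pearson's r of log2 CPM, as a description. These libraries share 4 groups, and a high r follows from the same order of groups. *Thbs1* was most like *F3*, which encodes tissue factor (r = 0.996), and *Cthrc1* most like *Ssr1* (0.994), which encodes a subunit of the translocon-associated complex. *Sparc* was nearest to *Bhlhe40* (0.993), *Tnc* and *Spp1* both had *Tcf24* as their nearest (0.993 and 0.982), and *Fn1* was nearest to *Itga4* (0.980). The nearest of *Thbs2* was *Piezo2* (0.979), that of *Tnxb* was *Kirrel3* (0.977) and that of *Postn* was *Cstf2* (0.974). Among the 9 genes themselves the closest pairs were *Tnc* with *Spp1* (0.974) and *Thbs1* with *Thbs2* (0.959), and *Fn1* and *Tnxb* ran opposite (-0.865).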

How the data were processed

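RNA of 12 cultures was measured, 3 in each of 4 groups that the sample labels give by site and treatment. The authors deposited whole-number read counts per gene symbol for every library, not normalized. The submitters' processing notes name FastQC, STAR, featureCounts, DESeq2 and mm10 without versions. The strand setting, the treatment of reads that match several genes and the annotation are not given in the sources used here. The labels give an age of 14 weeks, and the methods give another.

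The tests ran in edgeR 4.0.16 under R 4.3.3 (TMM, filterByExpr with its defaults and a minimum count of 10, glmQLFit and glmQLFTest, two-sided). P-values were Benjamini-Hochberg adjusted over all genes tested in a fit, with a threshold of 0.05. Each of the 4 pairwise comparisons was fitted on its own 6 libraries, and the interaction, positive where the change with TGFβ is more positive in ascending fibroblasts, on all 12. A standard error is the log2 fold change divided by the root of F. Totals were 16250126 to 23892943 counts, and a floor of 3 counts was used. Lengths and positions came from GENCODE vM21 (GRCm38), which matched 98.9% of the symbols, and TPM was computed over all exons of a gene. Promoters came from RefSeq (GRCm38.p6). Shared sequence is the percent of 50-base exonic sequences found in another gene. Python 3.11.15, numpy 2.4.6, pandas 2.3.3 and matplotlib 3.10.9 were also used. The fits of TGFβ in ascending fibroblasts and of the interaction were also run on simulated counts. These had the same spread for every gene and no outlying library, so they do not test the fits that hold descending control replicate 3.

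The members and all lists were chosen with earlier results of these data known. The text names the 10 members, relatives and receptors with an absolute log2 fold change of at least 1 (at most 4 per list and comparison), and the genes most like each member by Pearson's r of log2 CPM (prior count 2). *Lyz2*, *Gm42793*, *Tnxa*, the other markers and the relatives *Fstl1*, *Dmp1*, *Vtn*, *Ibsp* and *Mepe* were named outside this rule, after their values were seen. The alternatives were DESeq2 1.42.0, its size factors in edgeR, no filter, at least 10 counts in every library, the 12 libraries in one fit, the replicate number as a block, the longest transcript as length, and each library left out in turn. Counts of the same group differed by more than sampling noise (chi-square per degree of freedom of at least 2.63), so no library was counted as a copy.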

Additional observations from a re-analysis of the deposited data

Results flagged for a closer look

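The change of *Postn* with TGFβ was larger in ascending than in descending fibroblasts by 2.28 on the log2 scale (standard error 0.38, adjusted p = 0.0228 by edgeR's quasi-likelihood test), which is a difference between groups in the same contrast. All 3 ascending TGFβ libraries (665 to 673 normalized CPM) lay above the ascending controls (149 to 162), while the descending TGFβ libraries (533 to 568) lay above 2 of the descending controls (420.4 and 437) and below replicate 3 (993). The interaction was 1.75 without that library, the adjusted p was above 0.05 when any of the 6 ascending or 3 descending TGFβ libraries was left out, and the cause was not tested.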

How the results depend on the processing

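Of the single-gene values under alternatives, 497 kept their direction and side of the threshold, 56 lost the call, 23 gained it and 9 changed sign. With the 12 libraries in one fit, the genes called over all tested were 2338 for TGFβ in ascending, 3570 for TGFβ in descending, 1545 for site in control and 1106 for site with TGFβ, and 7 and 5 of the 9 matricellular genes were called in the last 2. DESeq2 called 2266 genes for TGFβ in descending, 1034 for site in control and 418 for the interaction, with 3 of the 9 in the latter. With no filter on low counts, 2 of the 9 and 862 of 24955 genes were called for TGFβ in descending, and 56 genes for the interaction.

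Fits that each lacked one library gave 1 to 9 calls among the 9 (213 to 7576 over all genes) for TGFβ in descending, 1 to 8 (33 to 4631) for site in control, and 0 to 4 (25 to 2022) for the interaction. The highest count of each came without descending control replicate 3. Signs turned for *Spp1* with TGFβ in ascending (-0.202 to 0.0825), *Postn* with TGFβ in descending (-0.37 to 0.37), *Cthrc1* between sites in control (-0.340 to 0.0747) and the interaction of *Thbs2* (-0.0442 to 0.0967, below 0 in 6 fits). The causes were not tested.

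Deviations of same-numbered libraries from their group means had r of -0.026 to 0.0878. With 3 libraries a group and descending control replicate 3 far from its group, this cannot show whether same-numbered cultures share an animal. A replicate block left 1 of the 9 called for TGFβ in descending (95 over all genes), 0 for site in control (0 over all genes, with 1235 at an unadjusted p under 0.05 and 374 calls by edgeR with no block) and 0 for the interaction (50 over all genes). DESeq2's size factors moved 3 of 40 group levels by more than their SD, and the longest transcript as length moved 27 of 40 length-scaled levels. At this depth *Tnn* could not be tested.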

Other observations

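Of the 17 relatives, 9 were too low to be tested, and *Vtn*, *Ibsp* and *Mepe*, which encode vitronectin and 2 mineral-binding phosphoproteins of bone, had 0 counts in all 12 libraries. *Dmp1*, another gene of that bone family, was at 1.72 normalized CPM in descending control replicate 3 and at 0.250 or less in every other library. *Fstl1*, a secreted SPARC relative, was the most abundant of the relatives by normalized CPM, at 2403 to 2443 in ascending control and 2616 to 2750 in ascending TGFβ. The 10 matricellular genes together took 2.92 to 3.13% of all counts in ascending control, 3.78 to 3.93% in ascending TGFβ, 3.00 to 3.43% in descending control and 4.29 to 4.54% in descending TGFβ.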
